A study of Homo sapiens with 4 samples.

Results

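The clustered protocadherins are 54 genes in 3 neighbouring groups, alpha, beta and gamma, on chromosome 5. They were picked by gene symbol alone (PCDHA, PCDHAC, PCDHB, PCDHGA, PCDHGB or PCDHGC followed by a number) and make up 54 of the 59885 genes in the deposited table, with 16 alpha, 16 beta and 22 gamma genes. The family was proposed with results of this comparison known, so every fold change and p-value below is a description of these genes and not independent evidence. The CFL1 knockout cells were labelled PANC-1, a line from a human pancreatic ductal adenocarcinoma, and the control cells carried the same line name without the knockout. Total RNA was sequenced in 2 libraries of each genotype. CFL1 encodes cofilin-1, an actin-severing protein, and the comparison asks how loss of CFL1 alters the transcripts of these cells. The labels give neither the way CFL1 was knocked out, nor whether a library was 1 clone or a pool, nor what the control cells received. Nothing in them says that libraries of a genotype came from separate cultures, so the p-values rest on a spread between libraries that may be technical.

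Clustered protocadherins are cell surface proteins of the cadherin superfamily, best known in neurons. Each neuron switches on its own combination, the proteins bind their own kind on a neighbouring membrane, and matching sets make branches of 1 cell avoid each other. In the alpha and gamma clusters each gene is a variable first exon with its own promoter, spliced to constant exons that the whole cluster shares and that encode a common cytoplasmic end. The beta genes have a single coding exon and no shared cytoplasmic end. The C-type genes at the end of the alpha and gamma clusters (PCDHAC1, PCDHAC2, PCDHGC3, PCDHGC4 and PCDHGC5) are expressed by most neurons where the other genes are chosen at random. Promoter choice depends on the DNA-binding protein CTCF and on cohesin, which hold a promoter against distant enhancers, and on DNA methylation, which silences unused promoters. Methylation over long stretches of these clusters has been described in several kinds of tumour.

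The promoters are shown first because the genes of a run in the beta cluster moved together between libraries. RefSeq promoters (GRCh38.p14, plus strand, 250 bases before to 50 after each start) were held for 47 of the 54 genes, in 52 sequences. No entry was held for PCDHA3, PCDHA13, PCDHA14, PCDHB6, PCDHB11, PCDHGA12 or PCDHGC5. Most protocadherin promoters carry a short conserved element near the start. It was searched here as the letters TGNCGCT and CGNCGCT on both strands, letters chosen after the promoters had been viewed. The strings differ in their first base, so they cannot match at the same place. At least 1 of them was in 12 of 13 alpha, 13 of 14 beta and 21 of 25 gamma promoter sequences, against 26.1% of all 35116 promoters. TGNCGCT was in 84.6% of alpha, 92.9% of beta and 44% of gamma sequences, against 10.9% of all promoters. CGNCGCT was in 7.69% of alpha, 7.14% of beta and 68% of gamma sequences, against 18.2% of all promoters. The median G and C content of the sequences was 37.3% in alpha, 40.8% in beta and 47.3% in gamma, against 58.7% over all promoters. A match is a description of letters, not a measured binding site.

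The following 25-base windows around the match show how alike the element is in the beta run and in PCDHB2 outside it. The PCDHGA1 and PCDHGA10 windows begin with CG, whereas in other gamma genes, such as PCDHGA3 and PCDHGA5, the match began with TG. Matched letters are in capitals.
PCDHB10: ggccacacggTGGCGCTgcaggcta
PCDHB12: agacgcgtggTGGCGCTgcaggata
PCDHB13: ggacgcgtggTGGCGCTgcaggata
PCDHB14: agacacatggTGGCGCTacaggata
PCDHB15: caacgcatggTGGCGCTgcaggcta
PCDHB2: agacgcggggTGGCGCTgcagcctt
PCDHA10: agccaccggaTGTCGCTgtcgtcca
PCDHA12: agtcacatgaTGTCGCTctacactc
PCDHGA1: ggactgtgggCGCCGCTgttcacta
PCDHGA10: ggactctgagCGCCGCTgttcacct
On the gene's own strand an exact match was in 10 of 13 alpha genes, 13 of 14 beta genes and 18 of 20 gamma genes with a promoter. The genes without an exact match were PCDHA9, PCDHAC1, PCDHAC2, PCDHB1, PCDHGB7 and PCDHGC4. Strings with a changed letter were not counted, so a gene without a match may still carry a variant of the element. In the beta run the match began between positions -68 and -41 from the RefSeq start.

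Whole promoters are given for PCDHB14, whose reads were nearly all in the knockouts and 1 control, for PCDHGC3, whose reads were nearly all in the other control, and for PCDHAC2, which was detected at over 100 normalized counts in all 4 libraries. Capitals mark the matches, which in PCDHAC2 lie on the opposite strand and are printed as their reverse complement.
PCDHB14, chr5:141223093-141223392: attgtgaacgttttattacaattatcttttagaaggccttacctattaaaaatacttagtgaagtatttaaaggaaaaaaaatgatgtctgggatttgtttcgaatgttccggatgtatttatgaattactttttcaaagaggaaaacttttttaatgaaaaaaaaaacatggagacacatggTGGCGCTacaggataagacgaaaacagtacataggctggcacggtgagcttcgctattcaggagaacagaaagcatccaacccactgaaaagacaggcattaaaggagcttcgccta
PCDHGC3, chr5:141475716-141476015: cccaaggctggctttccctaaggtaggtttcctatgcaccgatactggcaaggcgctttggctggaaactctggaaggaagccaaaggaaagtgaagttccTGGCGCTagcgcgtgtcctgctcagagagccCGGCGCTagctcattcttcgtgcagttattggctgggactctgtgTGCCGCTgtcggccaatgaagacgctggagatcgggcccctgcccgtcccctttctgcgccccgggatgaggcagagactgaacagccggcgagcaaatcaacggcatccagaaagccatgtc
PCDHAC2, chr5:140966226-140966525: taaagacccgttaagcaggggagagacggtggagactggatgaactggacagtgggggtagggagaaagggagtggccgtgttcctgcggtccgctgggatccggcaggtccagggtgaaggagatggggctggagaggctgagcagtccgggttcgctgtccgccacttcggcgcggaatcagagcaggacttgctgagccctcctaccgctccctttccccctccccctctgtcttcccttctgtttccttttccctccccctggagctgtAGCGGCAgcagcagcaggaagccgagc
PCDHGC3 held 3 matches on its own strand and PCDHB14 held 1. The G and C content was 35.7% in the PCDHB14 promoter, 59.0% in that of PCDHGC3 and 63.0% in that of PCDHAC2.

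The deposited table gives no values of single libraries. Reads of each library were worked out from its base means, the mean over 4 libraries of counts divided by size factors, and each of the 54 genes had exactly 1 solution. Recovered reads summed to 14353311 in knockout A, 12105249 in knockout B, 14015931 in control A and 13716448 in control B. The letters serve as names and cannot be tied to the numbers that the labels give the samples. CFL1 had 2285 and 2487 normalized counts in the knockouts, against 6276 in control A and 13761 in control B, and in the authors' deposited table its log2 fold change was -2.07 (standard error, SE, 0.454, adjusted p 0.00168 by DESeq2). By limma, CFL1 had an adjusted p of 0.722. Control B differed from the other libraries over the whole table. Over the 17089 genes of the table whose base mean was 10 or more, the log2(normalized count + 1) values had a Pearson's r of 0.70 between either knockout and control B, against 0.98 between either knockout and control A. Genes are not independent replicates, so these values only describe the libraries. The labels name both controls as the same line, and whether control B is that line was not tested. Epithelial markers that differ between the controls are given at the end. A difference between knockout and control that rests on control B can therefore not be told apart from whatever sets that library apart, and results are also given against each control alone.

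No clustered protocadherin was called between knockout and control. The authors' deposited table gives an adjusted p from DESeq2 for 18 of the 54 genes (3 alpha, 9 beta and 6 gamma). None of the 18 passed 0.05, with 0 higher and 0 lower, against 0.559% of the 16629 genes tested, 0.138% higher and 0.421% lower. Before adjustment, at a p under 0.05, the authors' deposited table marks 3 of the 54 as lower in the knockouts (PCDHGC3, PCDHA12 and PCDHA11), where 5.65% of 30831 genes were so marked. It marks 0 as higher, where 1.97% of genes were. By limma on these reads, with all 4 libraries, 0 of 48 members passed an adjusted p of 0.05 and 0 an unadjusted p of 0.05. voom also called 0 members. Over all genes limma gave 0 calls too, with 492 of 24772 genes at an unadjusted p under 0.05, against 429 with voom. Leaving out a knockout or control B, limma called 0 of all 24772 genes, so these fits say nothing about the members in particular. A fit without 1 control leaves a single control library, assumed to vary like the 2 knockouts, and holds no measure of the spread among controls. Without control A such a fit sets control B alone against the knockouts, and limma called 12 of the 48 members at an adjusted p under 0.05, against 33.4% of 24772 genes, 11 of them higher in the knockouts and PCDHGC3 lower. The 11 were PCDHB3, PCDHB9 to PCDHB15, PCDHGA1, PCDHGA2 and PCDHGA8.

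These are genes of low to moderate level. Their base means ran from 0.227 to 408, 48 genes reached a base mean of at least 1 and 23 reached at least 10 (4 alpha, 10 beta and 9 gamma). One read was worth 0.885 normalized counts in knockout A, 1.08 in knockout B, 0.909 in control A and 1.12 in control B. A gene with no read in a library may thus have had up to 3 reads' worth, which is 2.66, 3.24, 2.73 and 3.35 normalized counts in those libraries, for counting error only. Genes past a base mean filter can owe their place to 1 library, so the counts below describe those genes and not the family as a whole.

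All 54 genes together had similar summed levels in the libraries, but the clusters shared them differently. Their summed level was 1744 normalized counts in knockout A and 1734 in knockout B, against 1431 in control A and 1635 in control B. The beta cluster had 1353 and 1316 normalized counts in the knockouts, against 1121 in control A and 59.2 in control B. The gamma cluster had 218 and 226 in the knockouts, against 137 in control A and 1202 in control B. These 2 clusters exchanged places as the main source of reads between control B and the other libraries. The alpha cluster had 174 and 192 in the knockouts, against 174 in control A and 374 in control B. Control B thus had the lowest beta sum and the highest alpha and gamma sums of the 4 libraries. In bulk RNA, fewer cells with a transcript and less of it per cell cannot be told apart.

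As a share of the reads of all 54 genes, beta genes took 77.6% (95% Wilson interval 75.7 to 79.4) in knockout A and 75.9% (73.7 to 77.9) in knockout B, against 78.3% (76.2 to 80.3) in control A and 3.62% (2.78 to 4.71) in control B. Gamma genes took 12.5% (11.1 to 14.02) and 13.1% (11.5 to 14.8) in the knockouts, against 9.59% (8.23 to 11.1) in control A and 73.5% (71.2 to 75.7) in control B. Alpha genes took 9.95% (8.70 to 11.4) and 11.1% (9.63 to 12.7) in the knockouts, against 12.1% (10.6 to 13.8) in control A and 22.9% (20.8 to 25.1) in control B. The intervals cover counting error only. Beta was far ahead in both knockouts and in control A, with gamma above alpha in the knockouts and below it in control A. Control B had gamma first and beta last. Per kilobase of the longest annotated transcript the order was beta, gamma, alpha in the knockouts and control A, and gamma, alpha, beta in control B. Beta sums were 322 and 314 normalized counts per kilobase in the knockouts, against 266 in control A and 14.9 in control B, and gamma sums were 45.8 and 47.9 in the knockouts, against 28.9 in control A and 254 in control B. Alpha sums were 28.3 and 30.7 normalized counts per kilobase in the knockouts, against 28.3 in control A and 63.0 in control B.

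**Figure D1:**
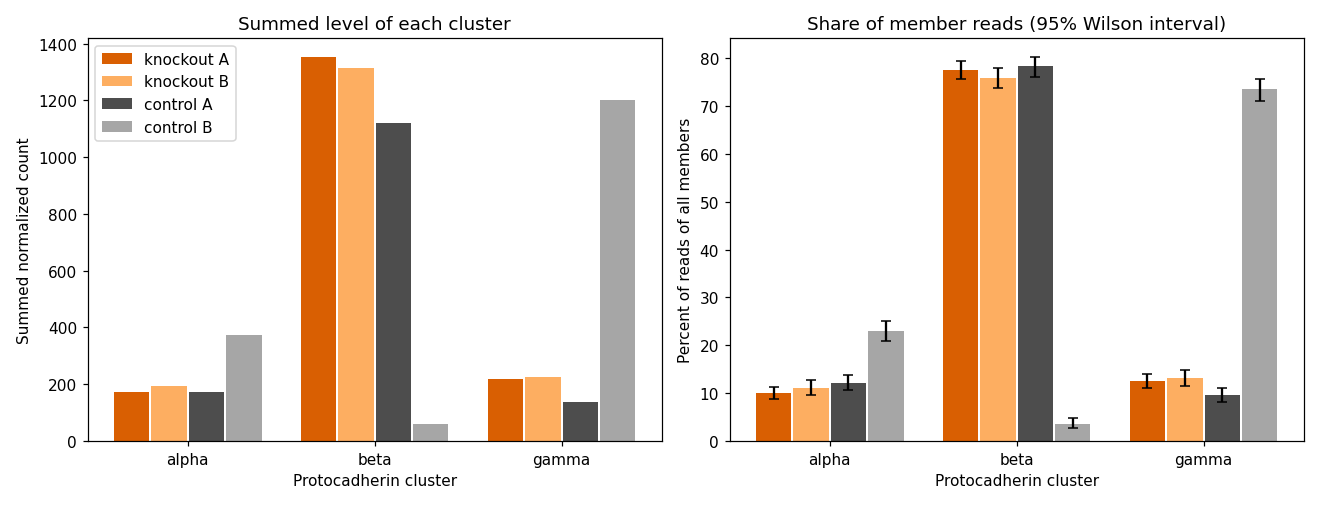
Summed normalized counts of the alpha, beta and gamma clusters (left) and their percent of the reads of all 54 genes with 95% Wilson intervals (right), with a bar for each of the 2 knockout and 2 control libraries. Beta holds 75.9% to 78.3% of the reads in both knockouts and control A and 3.62% in control B, where gamma holds 73.5%.

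Between the genotypes these sums differed by less than the 2 controls did. The beta sum was 1334 ± 26.4 normalized counts in the knockouts and 589.9 ± 750.5 in the controls (SD, n = 2 each), a log2 ratio of 1.18. The gamma sum was 222 ± 6.11 in the knockouts and 669 ± 753 in the controls, a log2 ratio of -1.59. The alpha sum was 183 ± 13.02 in the knockouts and 274 ± 142 in the controls, a log2 ratio of -0.58. In all 3 clusters the SD of the controls was over 10 times that of the knockouts. Against control A alone the log2 ratios were 0.25 for beta, 0.69 for gamma and 0.07 for alpha, and against control B alone they were 4.49, -2.44 and -1.03. The gamma and alpha sums therefore changed sign with the choice of control. No test was made on these sums, since an exact two-sided permutation test of 2 against 2 libraries cannot go below 0.333.

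The beta cluster was read mostly from a run of 6 consecutive genes, PCDHB10 to PCDHB15. The bounds of the run were set after these values were seen. Its share of reads and its distance from control B therefore describe the genes chosen and are no separate evidence. The run held 90.1% and 93.5% of beta reads in the knockouts, against 92.4% in control A and 24.5% in control B. Its summed level was 1218 and 1230.4 normalized counts in the knockouts, against 1035 in control A and 14.5 in control B. The 6 genes were at 34.5 to 641 normalized counts in the knockouts and control A, and at 0 to 4.47 in control B. The other 10 beta genes together had 135 and 85.2 normalized counts in the knockouts, against 85.4 in control A and 44.7 in control B. Beta genes encode cadherin-type surface proteins, and most are not individually characterised.

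PCDHB11 (ENSG00000197479.6_3_PCDHB11) was the most highly expressed member in both knockouts and in control A, also per kilobase. It had 587 and 641 normalized counts in the knockouts, against 403 in control A and 3.35 in control B. Both knockouts lay above both controls. In the authors' deposited table its log2 fold change was 1.60 (SE 2.13, adjusted p 0.742 by DESeq2). From the knockout mean, control A lay 0.61 lower and control B 7.14 lower as log2(normalized count + 1). Without control B, limma gave PCDHB11 a log2 fold change of 0.61 with an unadjusted p of 0.0209 and an adjusted p of 0.368, a fit in which the spread comes from the 2 knockouts alone.

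PCDHB14 had 185 and 177 normalized counts in the knockouts, against 195 in control A and 4.47 in control B. PCDHB13 had 174 and 151 in the knockouts, against 178 in control A and 2.24 in control B. PCDHB10 had 123 and 128 in the knockouts, against 134 in control A and 2.24 in control B. In each of these 3 genes control A lay above both knockouts, so the groups overlapped. PCDHB12 had 105 and 99.2 normalized counts in the knockouts, against 87.2 in control A and 2.24 in control B, and its groups did not overlap. PCDHB15 had 44.3 and 34.5 in the knockouts, against 38.2 in control A and 0 in control B. The knockouts of PCDHB15 stood on either side of control A.

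Over the 6 genes of the run the log2 fold changes in the authors' deposited table ran from 0.85 to 1.60, with standard errors of 1.41 to 2.13 and DESeq2 adjusted p of 0.716 to 0.810. Their knockout means lay between -0.14 and 0.61 from control A, and between 4.996 and 7.14 from control B, on the log2(normalized count + 1) scale. The promoter element printed above was in 13 of 14 beta genes with a promoter, all but PCDHB1, so it is not particular to the run. It was in all 5 genes of the run with a promoter, and outside the run also in PCDHB2, PCDHB8 and PCDHB16, among others. PCDHB8, PCDHB16 and the pseudogene named next were chosen after their values were seen. The pseudogene PCDHB18P, which lies between PCDHB14 and PCDHB15, had 11.5 and 19.4 normalized counts in the knockouts, against 22.7 in control A and 0 in control B. Reads shared by beta genes are few, since the median share of a beta transcript's 100-base windows found in another member was 6.04%, although it was highest at 25.7% for PCDHB8 and was 24.7% for PCDHB10 and 15.1% for PCDHB13.

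Outside the run, each beta gene had fewer reads in the knockouts and control A than any gene of the run. PCDHB2 had 31.0 and 16.2 normalized counts in the knockouts, against 22.7 in control A and 21.2 in control B. It was the beta gene with the most reads in control B, and its controls lay between the knockouts. For PCDHB2 the authors' deposited table lists the log2 fold change as 0.11 (SE 0.741, adjusted p 0.951 by DESeq2). PCDHB9, which lies next to the run, had 30.1 and 29.1 normalized counts in the knockouts, against 22.7 in control A and 3.35 in control B. Both knockouts lay above both controls, and the authors' deposited table lists the log2 fold change as 1.17 (SE 1.11, adjusted p 0.654 by DESeq2). PCDHB8 had 16.8 and 11.9 in the knockouts, against 7.27 in control A and 5.59 in control B, and PCDHB16 had 22.1 and 11.9 in the knockouts, against 11.8 in control A and 7.82 in control B. In those 2 genes both knockouts exceeded both controls, with DESeq2 giving an adjusted p for PCDHB16 alone (0.697 in the authors' deposited table).

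**Figure D2:**
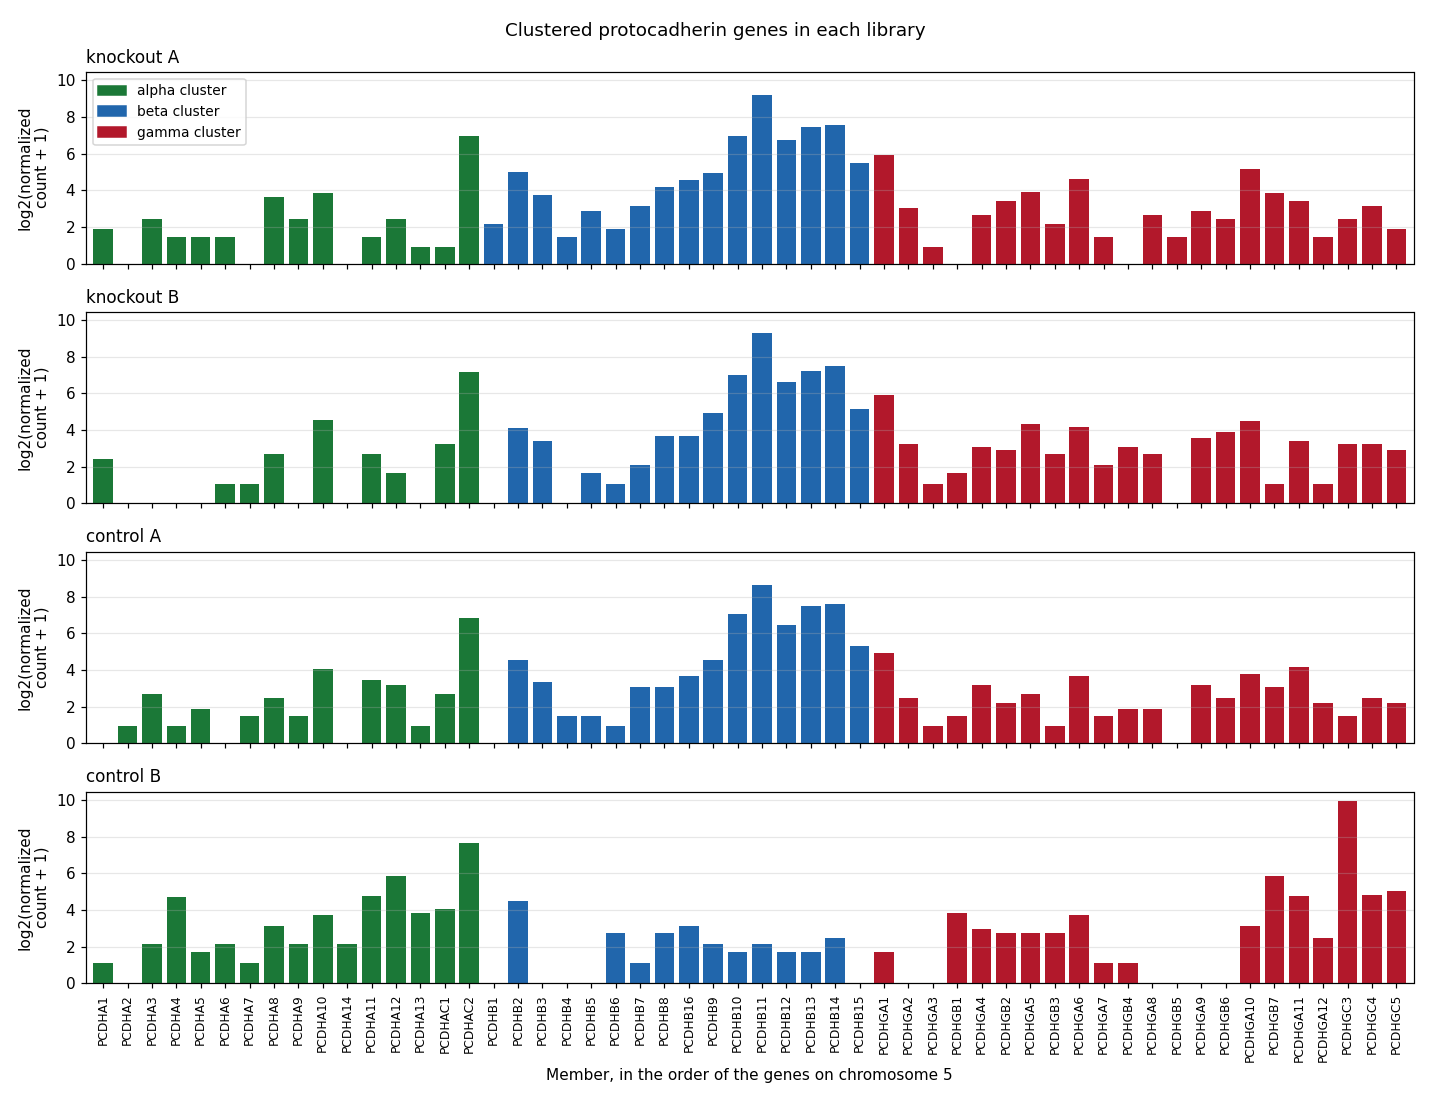
Level of each of the 54 genes as log2(normalized count + 1), in the order of the genes on chromosome 5, in knockout A, knockout B, control A and control B from top to bottom. The bars of PCDHB10 to PCDHB15 stand high in the upper 3 panels and are at 0 to 4.47 normalized counts in control B, where PCDHGC3 stands highest with 995.

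In the gamma cluster the C-type gene PCDHGC3 accounted for most of the difference between libraries. PCDHGC3 (ENSG00000240184.6_3_PCDHGC3) encodes a gamma protocadherin that in mouse neurons binds Axin1 and dampens Wnt signalling. It had 4.43 and 8.63 normalized counts in the knockouts, against 1.82 in control A and 995 in control B, from 5, 8, 2 and 890 reads. The knockouts lay between the 2 controls. In the authors' deposited table its log2 fold change was -6.26 (SE 2.54, unadjusted p 0.0138, adjusted p 0.262 by DESeq2). The knockout mean lay 1.36 above control A and differed from control B by -7.11 on the log2(normalized count + 1) scale, so the sign of the fold change rests on control B. PCDHGC3 held 82.8% of gamma reads in control B. Without it the gamma sum was 213 and 218 normalized counts in the knockouts, against 135 in control A and 207 in control B.

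The other C-type gamma genes were lower but were also highest in control B. PCDHGC4, which mouse interneurons need for survival, had 7.97 and 8.63 normalized counts in the knockouts, against 4.54 in control A and 26.8 in control B. PCDHGC5, named after its values were seen, had 2.66 and 6.47 in the knockouts, against 3.64 in control A and 31.3 in control B. In both genes control B stood above the other 3 libraries. The authors' deposited table gives no adjusted p for either, and its log2 fold change of PCDHGC4 was -0.91 (SE 1.21). PCDHGB7, at the far end of the B-type genes, had 13.3 and 1.08 normalized counts in the knockouts, against 7.27 in control A and 57.0 in control B. Its knockouts lay 2.78 apart as log2(normalized count + 1), and the authors' deposited table lists the log2 fold change as -2.15 (SE 1.57, adjusted p 0.562 by DESeq2).

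Among the A-type gamma genes, 4 of the 5 whose base mean reached 10 had both knockouts above both controls, where 23.7% of 17089 genes at that level did. They are PCDHGA1, PCDHGA5, PCDHGA6 and PCDHGA10, and none was called. The filter can admit a gene because its knockouts are high, as with PCDHGA5. At a base mean of at least 1, 6 of 11 A-type genes had both knockouts above both controls and 2 had both below. Of 24772 genes at that level, 5232 lay above and 4939 below. PCDHGA1 had 59.3 and 60.4 normalized counts in the knockouts, against 29.1 in control A and 2.24 in control B. Its level in the knockouts was close to even, and the log2 fold change, from the authors' deposited table, was 1.92 (SE 1.22, adjusted p 0.499 by DESeq2). PCDHGA10 had 34.5 and 21.6 normalized counts in the knockouts, against 12.7 in control A and 7.82 in control B. For PCDHGA10 the authors' deposited table lists the log2 fold change as 1.44 (SE 0.802, adjusted p 0.438 by DESeq2).

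PCDHGA5 had 14.2 and 19.4 normalized counts in the knockouts, against 5.45 in control A and 5.59 in control B. Its controls were nearly equal and both knockouts lay above them. The log2 fold change, from the authors' deposited table, was 1.60 (SE 0.891, unadjusted p 0.0723), with no DESeq2 adjusted p. PCDHGA6 had 23.9 and 17.3 normalized counts in the knockouts, against 11.8 in control A and 12.3 in control B, and the authors' deposited table gives 0.78 (SE 0.749, adjusted p 0.658 by DESeq2). PCDHGA11 went the other way, with 9.74 and 9.71 in the knockouts, against 17.3 in control A and 25.7 in control B. The log2 fold change, from the authors' deposited table, was -1.14 (SE 0.782, adjusted p 0.534 by DESeq2). As log2(normalized count + 1), the knockout mean of PCDHGA5 exceeded control A by 1.45 and control B by 1.42, and that of PCDHGA6 exceeded them by 0.73 and 0.68.

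The alpha cluster was read mostly from PCDHAC2 (ENSG00000243232.4_3_PCDHAC2), a C-type gene that in mouse is needed for the even spread of serotonergic axons. PCDHAC2 had 124 and 141 normalized counts in the knockouts, against 115 in control A and 200.1 in control B. It was the highest alpha gene in all 4 libraries, also per kilobase, and held 53.4% to 73.6% of alpha reads. In the authors' deposited table its log2 fold change was -0.25 (SE 0.484, adjusted p 0.823 by DESeq2), and without control B limma gave 0.20. Its standard error was the smallest of the 20 named members.

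PCDHA12 had 4.43 and 2.16 normalized counts in the knockouts, against 8.18 in control A and 57.0 in control B. Both knockouts lay below both controls, and control A lay nearer to the knockouts than to control B. The authors' deposited table gives PCDHA12 a log2 fold change of -3.29 (SE 1.35, unadjusted p 0.0147, adjusted p 0.267 by DESeq2). PCDHA11 had 1.77 and 5.39 normalized counts in the knockouts, against 9.997 in control A and 25.7 in control B, again with both knockouts lower. For PCDHA11 the authors' deposited table gives -2.34 (SE 1.18, unadjusted p 0.0479) and no DESeq2 adjusted p. PCDHA10 had 13.3 and 22.6 in the knockouts, against 15.5 in control A and 12.3 in control B, and its groups overlapped. PCDHA10 had a log2 fold change of 0.36 in the authors' deposited table (SE 0.796, adjusted p 0.845 by DESeq2).

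The genes from PCDHA11 to PCDHAC2, next to the beta cluster, were all highest in control B. PCDHA13 and PCDHA4, named after their values were seen, were close to 0 in the other libraries. PCDHA13 had 0.885 and 0 normalized counts in the knockouts, against 0.909 in control A and 13.4 in control B. PCDHA4 had 1.77 and 0 in the knockouts, against 0.909 in control A and 24.6 in control B. Without PCDHAC2 the alpha sum was 49.6 and 50.7 normalized counts in the knockouts, against 58.2 in control A and 174 in control B. Alpha and gamma values are less certain than beta values. In GENCODE 29, 11 of 16 alpha and 17 of 22 gamma genes share a long stretch at their 3′ end with another member, whereas beta genes share at most 6 bases. Reads in shared stretches are divided by estimation. The count needs ends that match to the last base and so misses some sharing. PCDHGA1 is not in it, yet 48.8% of its 100-base windows were found in another member. The median share of such windows was 54.1% for alpha and 46.3% for gamma.

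**Figure D3:**
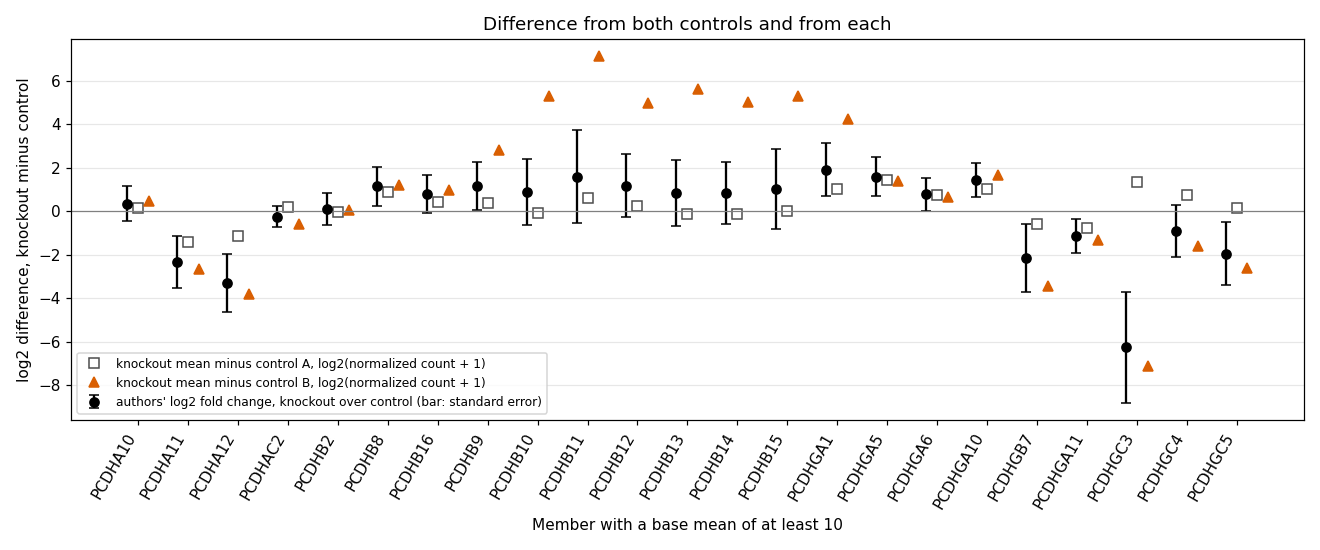
Log2 differences, knockout minus control, for the 23 genes whose base mean was 10 or more, with the authors' fold change and its standard error (circles), and the knockout mean minus control A (squares) and minus control B (triangles) on the log2(normalized count + 1) scale. Triangles of PCDHB10 to PCDHB15 lie at 4.996 to 7.14 and that of PCDHGC3 at -7.11, while the squares lie between -1.39 and 1.45.

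Counts over the 23 members with a base mean of at least 10 can be read beside those over all genes. Control B lay at least 4-fold below each of the other 3 libraries in 8 of the 23, against 10.9% of 17089 genes, and at least 4-fold above each in 4, against 6.91%. The 8 were 7 beta genes and PCDHGA1, and the 4 were PCDHA12, PCDHGB7, PCDHGC3 and PCDHGC5. Both knockouts lay above both controls in 9 of the 23 (5 beta and 4 gamma), against 23.7% of genes, and below both in 3, against 21.0%. With a base mean of at least 1 these counts were 15 and 7 of 48 members, against 5232 and 4939 of 24772 genes. Against control A alone, 6 of the 23 differed by at least 1 on the log2 scale, against 5.76% of genes. Those 6 were PCDHA11 and PCDHA12, which were lower in the knockouts, and PCDHGA1, PCDHGA5, PCDHGA10 and PCDHGC3, which were higher. The 5.76% is not matched for level, since the base mean reached 100 in 11416 of the 17089 genes but in only 5 of the 23 members. At that level 11245 of the 11416 genes lay within 1 of control A, as did 4 of the 5 members. PCDHGC3 had 5 and 8 reads in the knockouts and 2 in control A, and passed the filter through control B. All 10 beta genes lay within 1 of control A.

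For the 48 members with a base mean of at least 1, medians differed by cluster and by control. The median log2 fold change, from the authors' deposited table, was -1.06 for alpha, 0.96 for beta and 0.76 for gamma, against -0.05 over 24772 genes. The median difference of the knockout mean from control A was -0.37 for alpha, 0.24 for beta and 0.69 for gamma, and that from control B was -0.90, 3.20 and 0.45. Over all genes both medians were within 0.01 of 0. Gamma fold changes had opposite signs by type, with a median of 1.03 for the A-type and -1.94 for the C-type genes. From control A alone the knockout means had medians of 0.67 for the A-type and 0.75 for the C-type genes. From control B alone these were 1.42 and -2.63, so the opposite signs by type rest on control B. Among the 23 members with a base mean of at least 10 the gamma median was -0.91, so its sign depends on which genes the filter admits. PCDHGC3, PCDHGC4 and PCDHGC5 passed that filter through control B, where they were highest, and had negative fold changes.

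**Figure D4:**
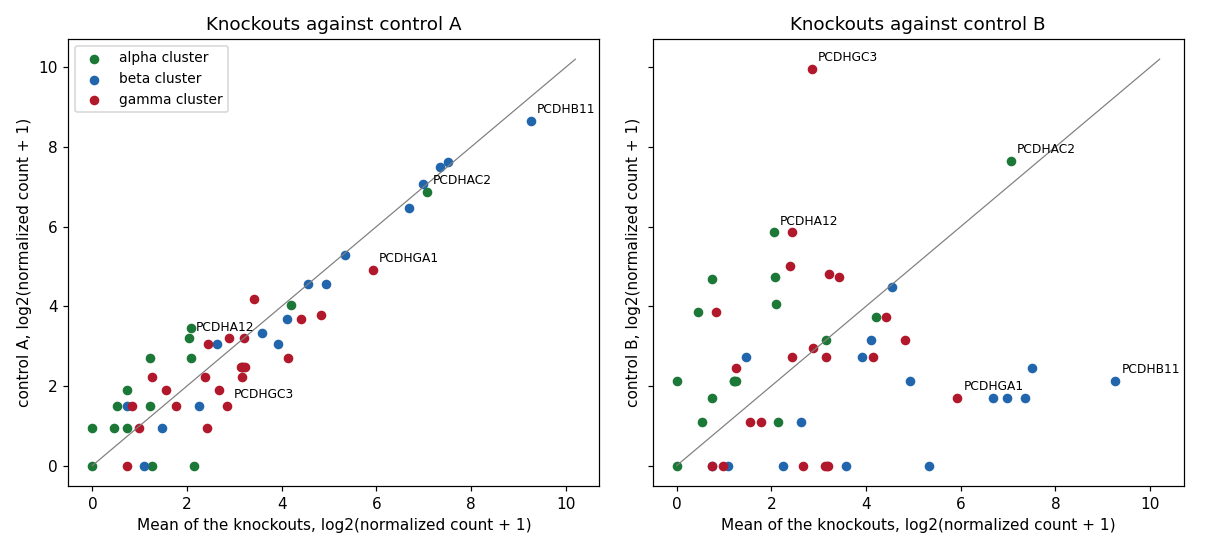
Each point is 1 of the 54 genes, with the mean of the 2 knockouts on the x axis and control A (left) or control B (right) on the y axis, all as log2(normalized count + 1). Members lie along the line of equal values against control A and are scattered against control B, where PCDHGC3 lies far above the line and PCDHB11 far below it.

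The libraries' profiles over the 54 genes followed the same division. Pearson's r of log2(normalized count + 1) over the members was 0.87 between the knockouts and 0.90 between either knockout and control A. It was 0.11 and 0.13 between the knockouts and control B, and 0.15 between the controls. Each r is a description across 54 genes that share libraries and depth. Over the members, r with control A was no lower than r between the knockouts.

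Genes that govern these promoters were not called, where 0.559% of 16629 genes were called over the whole table. At an unadjusted p under 0.05, 1.97% of 30831 genes were higher and 5.65% lower. A count of 0 in a short list therefore does not set it apart from all genes. CTCF, which binds the promoter element, had 843 and 864 normalized counts in the knockouts, against 788 in control A and 941 in control B. Of 13 genes for cohesin, its loader and CTCF, 0 rose and 0 fell at a DESeq2 adjusted p under 0.05 in the authors' deposited table, and 0 had an unadjusted p under 0.05. Their median log2 fold change there was 0.12, against 0.04 from control A alone and 0.31 from control B alone on the log2(normalized count + 1) scale. RAD21, the cohesin subunit with the most reads, had 6404 and 7320 normalized counts in the knockouts, against 6155 in control A and 5524 in control B (adjusted p 0.616 by DESeq2, authors' deposited table). Both of its knockouts lay above both controls.

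Of 20 genes for DNA methylation and silencing, 0 were called in either direction in the authors' deposited table, against 0.559% of 16629 genes. In that list 1, the methylcytosine oxidase gene TET3, was lower at an unadjusted p under 0.05, against 5.65% of 30831 genes. The list's most abundant gene below a base mean of 10000, the co-repressor gene TRIM28, had a log2 fold change of -0.59 in the authors' deposited table (DESeq2 adjusted p 0.565). DNMT3A, a DNA methyltransferase named after its values were seen, had 930 and 891 normalized counts in the knockouts, against 598 in control A and 149 in control B. Control B was the lowest library at DNMT3A, as it was at the beta run. Their relation was not tested. DNMT3A had a DESeq2 adjusted p of 0.427 in the authors' deposited table.

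Proteins that cut or signal from protocadherins, and the WAVE complex, which alpha protocadherins bind to control branched actin, were not called either. Of 16 protease and signalling genes and 9 WAVE genes in the authors' deposited table, 0 passed a DESeq2 adjusted p of 0.05. An unadjusted p of 0.05 was passed by 0 of them. Over all genes 0.559% of 16629 passed the adjusted threshold, and at the unadjusted one 1.97% of 30831 were higher and 5.65% lower. CTNNB1, which encodes beta-catenin, had a log2 fold change of -0.31 in the authors' deposited table (DESeq2 adjusted p 0.662). NCKAP1, the WAVE subunit with the most reads, had 5759 and 6834 normalized counts in the knockouts, against 7417 in control A and 9791 in control B (adjusted p 0.463 by DESeq2, authors' deposited table). Both knockouts lay below both controls at NCKAP1.

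Among 24 genes for other protocadherins and the related FAT and CELSR cadherins, 23 had reads and PCDH8 had none. In this list 0 were called, against 0.559% of 16629 genes. At an unadjusted p under 0.05 there were 0, where 1.97% of 30831 genes were higher and 5.65% lower. FAT1, the giant cadherin with the most reads, had a log2 fold change of -0.42 in the authors' deposited table (DESeq2 adjusted p 0.679). In 7 of the 22 with values per library control B lay at least 4-fold above each other library, and in 1 at least 4-fold below. No minimum level was set for this count, so it cannot be compared with the shares of all genes given above. Among the 7, PCDH19 and FAT3 had 3.35 normalized counts in control B, which is 3 reads, and 0 in the other libraries. PCDH15 and PCDH18 had base means of 3.52 and 9.22, and FAT4, PCDH9 and DCHS1 had 726, 21.0 and 23.1. PCDH7, named after its values were seen, had 813 and 760 normalized counts in the knockouts, against 677 in control A and 731 in control B, and was thus nearly even in all libraries.

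Of 16 neighbouring genes on chromosome 5, 0 were called, and in 0 did control B lie 4-fold from the other libraries. DIAPH1, a formin gene beyond the gamma cluster, had 7333 and 7681 normalized counts in the knockouts, against 7439 in control A and 5102 in control B (adjusted p 0.695 by DESeq2, authors' deposited table). Between the beta and gamma clusters, TAF7, which encodes a subunit of a general transcription factor, had 2595 and 2571 in the knockouts, against 2032 in control A and 744 in control B. TAF7 was named after its values were seen. NDUFA2 was higher and WDR55 lower at an unadjusted p under 0.05 in the authors' deposited table. Of all 30831 genes, 1.97% were so marked higher and 5.65% lower.

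Marker genes set the libraries apart as well. Of 6 epithelial markers 0 were called, against 0.559% of 16629 genes. At an unadjusted p under 0.05, 4 were lower, against 5.65% of 30831 genes. KRT8 and KRT18 had base means of 14817 and 12890 in the authors' deposited table. KRT7 had 4000.4 and 3683 normalized counts in the knockouts, against 3551 in control A and 108 in control B, while KRT19 had 0 and 0 in the knockouts, against 1.82 in control A and 2481 in control B. CDH1, which encodes E-cadherin, had 3.54 and 2.16 in the knockouts, against 12.7 in control A and 164 in control B. EPCAM was at 6.36 to 42.5 normalized counts in the 4 libraries. Control B was thus apart in 3 of these defining markers of an epithelial cell.

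Of 10 neuronal markers, 8 had reads, and the defining genes STMN2 and GAP43 were at 0 in all libraries. The neuronal markers summed to 1094 and 1311 normalized counts in the knockouts, against 1700 in control A and 3447 in control B. TUBB3 had 492 and 609 in the knockouts, against 865 in control A and 1783 in control B (adjusted p 0.206 by DESeq2, authors' deposited table). The fibroblast list, with 6 of 7 genes detected and LUM at 0, summed to 1232 and 1104 in the knockouts, against 936 in control A and 1921 in control B. COL1A1, the largest part of the sum in the knockouts and control B, had 687 and 556 in the knockouts, against 354 in control A and 1574 in control B. PDGFRB went the other way, with 439 and 451 in the knockouts, against 513 in control A and 6.71 in control B, as did DCN, with 4.43 and 4.31 in the knockouts, against 2.73 in control A and 0 in control B. The leukocyte and endothelial list, with 6 genes detected, summed to 35.4 and 39.9 in the knockouts, against 57.3 in control A and 1264 in control B. CD68, at 1217 normalized counts in control B, made up nearly all of that last sum, and the leukocyte gene PTPRC was at 0 to 0.885. The part of these differences in the protocadherin values was not tested.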

How the data were processed

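A single file was used, the DESeq2 results that the authors deposited for CFL1 knockout over control. According to the submitters' processing notes, STAR, RSEM, cutadapt, FastQC and hg19 were used, without versions or roles, and per the labels' protocols RNA had an integrity number of 7 or more. The authors deposited a base mean per gene, a signal averaged over the 4 libraries after each count had been divided by its library's size factor. Fold changes and their standard errors are on the log2 scale, as the authors deposited them. The Wald score, their ratio, and the p-value columns, unadjusted and Benjamini-Hochberg adjusted, were deposited by the authors as well. The table's mark equals an unadjusted p under 0.05. Members and gene lists were chosen with earlier results of these data known.

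Reads of each library were worked out from base means printed to 15 digits, which are sums of whole reads times 4 steps. This gave whole reads for 30610 of 30662 genes (99.8%), checked against the printed digits. At base means of 10 or more, 16837 of 16899 genes had an implied log2 fold change that differed from the authors' by under 0.001. The same 0.001 was a tolerance of the recovery at higher base means. There this agreement was set in advance and is no separate check. Base means shifted on purpose gave an accepted solution in 0 of 100 from 10 to 450. The 23 members named or counted at a base mean of 10 or more lie in that range. A solution was accepted in 2 of 100 in the next range and in 10 of 100 in the highest range, which ended at 10000. CFL1, RAD21, NCKAP1, DIAPH1 and KRT7 lie in the highest range, so their values per library are less certain. The 169 genes at or above 10000 were left out, and TRIM28, CTNNB1 and FAT1 have no values per library. RSEM estimates counts, so recovered reads are rounded estimates. The step sizes do not show which library number of the labels a letter stands for, and the sign of the deposited fold change for genes with 1 read gave the genotype.

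limma 3.58.1 (R 4.3.3) was run with a trended prior on log2(normalized count + 1), keeping genes whose mean was 1 or more. The added 1 understates the changes of low genes. The script was checked on simulated reads. As alternatives, voom, a pseudocount of 0.1, a minimum mean of 10 and leaving out each library were tried. Named genes are CFL1, up to 8 members per cluster with the highest base mean among those of at least 10, and from each list the called genes or, with none, the gene with the highest base mean below 10000. Transcript lengths, exons and shared 3′ ends came from GENCODE 29 on GRCh38, another build than that of the table, so no coordinates are given except those of RefSeq promoters. Computations used Python 3.11.15, numpy 2.4.6, pandas 2.3.3, scipy 1.17.1, numba 0.67.0 and matplotlib 3.10.9.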

Additional observations from a re-analysis of the deposited data

How the results depend on the processing

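Depth and control B limit these results. There were 2 libraries a genotype, 31 of the 54 genes had a base mean under 10, and several differences depended on which control was used. The count of clustered protocadherins called was 0 in the authors' table, 3 by an unadjusted p under 0.05, and 0 to 12 with limma leaving out each library in turn. That of regulator and partner genes was 0, and 0 to 37 leaving out each library. Without control A these counts were 12 of 48 members and 37 of 88 genes tested (42%), against 33.4% of all 24772 genes in the same fit, whose spread comes from the 2 knockouts alone. The cause was not tested. Leaving out each library in turn, the log2 ratio of cluster sums ran from 0.25 to 4.49 for beta, from -2.44 to 0.69 for gamma and from -1.03 to 0.07 for alpha. Medians were taken here on log2(normalized count + 1), not from the authors' fold changes. With all libraries they were 1.75 for beta, 0.55 for gamma and -0.91 for alpha. Leaving out each library, they ran from 0.24 to 3.20 for beta, from 0.27 to 0.69 for gamma and from -0.90 to -0.31 for alpha. The alpha median was -2.04 with a pseudocount of 0.1. At a base mean of at least 10, the gamma median of the authors' fold changes was -0.91. In alternatives added after seeing the data, the gamma ratio was 0.33 without PCDHGC3, the beta ratio 0.76 without PCDHB10 to PCDHB15, and the alpha ratio -1.21 without PCDHAC2. Signs of single genes turned as libraries were left out, with ranges of -0.59 to 0.20 for PCDHAC2, -0.050 to 0.68 for PCDHA10, -0.11 to 5.06 for PCDHB14, -0.14 to 5.65 for PCDHB13, -0.088 to 5.29 for PCDHB10, -0.42 to 0.48 for PCDHB2, -7.11 to 1.36 for PCDHGC3, -1.58 to 0.75 for PCDHGC4 and -1.35 to 0.80 for COL1A1. No paired analysis was possible because the recovered libraries carry no sample number.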
